A study of Mus musculus with 8 samples.

Results

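Slit, Robo and srGAP genes encode the ligands, receptors and cytoplasmic effectors of one axon guidance pathway, and 8 of them were examined in the hippocampus of mice that had been anesthetized repeatedly with ketamine late in postnatal development. They were Slit1, Slit2, Slit3, Robo1, Robo2, Srgap1, Srgap2 and Srgap3, found by matching Ensembl identifiers to gene symbols, and they made up 8 of the 20802 genes listed. The set was chosen by its pathway and with the measured Anesthesia against Control differences of these same mice known. The group differences below therefore describe the genes and carry no test of their own. The levels of the genes relative to each other and their covariation among mice of the same group were not used in that choice, and these were tested. The cell type marker lists with which the genes were also correlated were themselves chosen with earlier results of these data known.

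The mice were C57BL/6 males with no genetic alteration, with 4 mice each in Anesthesia and Control, and the question asked of the samples was which hippocampal transcripts differ after early anesthesia. Anesthesia mice received ketamine at 35 mg/kg intraperitoneally once a day for 5 days from postnatal day (PND) 16, and Control mice were handled in the same way with saline according to the treatment protocol, although their sample titles call them untreated. The age given for the mice is PND28, and the study describes RNA collection 1 week after the last injection. Whole hippocampal tissue was sequenced, so fewer cells of one type and less RNA per cell cannot be told apart in any of the values.

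Slit proteins are large secreted ligands that bind Roundabout (Robo) receptors on growing axons and migrating neurons and, in most settings, repel them. The cytoplasmic part of Robo recruits the srGAPs, GTPase-activating proteins that switch off small GTPases such as Rac and Cdc42 and, through an F-BAR domain, bend membranes. In the forebrain the pathway is known for steering commissural and hippocampal axons, and srGAPs also act at dendritic spines and synapses of more mature neurons.

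The deposited values were counts normalized across libraries, and their sum was between 18702634 and 19231119 per mouse. A mean of at least 10 was reached by 18865 genes, of which none passed an adjusted p of 0.05 in limma (percent called 0; smallest adjusted p = 0.381), and none did with limma voom. The study used DESeq2, a count model, and called genes as differing between these groups at the same adjusted threshold. The absence of calls here holds for limma and limma voom on the deposited values. At an unadjusted p under 0.05, limma called 1513 genes, or 8.02% of those tested, and 4.75% were called and higher in Anesthesia. In simulated data of the same size with 200 changed genes, 19.8% of genes changed by 0.4 on the log2 scale were recovered. The simulated noise was independent between genes, without the variation that libraries share. The share is a mean over genes of every spread and does not give the power for a single gene. Hippocampal neuron markers were present in every library, with summed values of the CA1 list between 6268 and 8128, of the CA3 list between 10349 and 15070, and of the dentate granule list between 5721 and 12064. The libraries fell apart in choroid plexus RNA. The 10 choroid plexus markers summed to 57455 in Anesthesia mouse 1 and to 26622, 66987 and 66640 in Control mice 2, 3 and 4. They summed to only 1003, 510 and 3487 in Anesthesia mice 2, 3 and 4 and to 662 in Control mouse 1. All 10 markers had a lower mean log2 value in Anesthesia, and none of the 10 was at 0 in any mouse. Other lists also differed in direction, with no gene past the adjusted threshold. In Anesthesia, 7 of 9 fibroblast markers were lower (median log2 fold change −0.369), as were 9 of 9 oligodendrocyte markers (−0.073). Of 10 thalamus markers 6 were lower and 4 higher (−0.163), and of 8 cortex and subiculum markers 6 were higher and 2 lower (0.373).

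Of the 8 genes, none passed the adjusted threshold in limma or in limma voom, and 2 of 8, Srgap1 and Srgap3, had an unadjusted p under 0.05 in both tools, each higher in Anesthesia, beside the background of 8.02% of all genes. Srgap3 was the single one of the 8 whose 4 Anesthesia values lay entirely apart from the 4 Control values. Groups did not overlap in 5.04% of all genes tested, and in 2.81% they did not overlap with Anesthesia higher. Of the 8 genes, 4 had a higher and 4 a lower mean log2 value in Anesthesia, with a median log2 fold change of 0.009 against −0.0036 over all genes tested. Since the genes were selected with this contrast known, these counts describe them and nothing more is read from them.

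**Figure D1:**
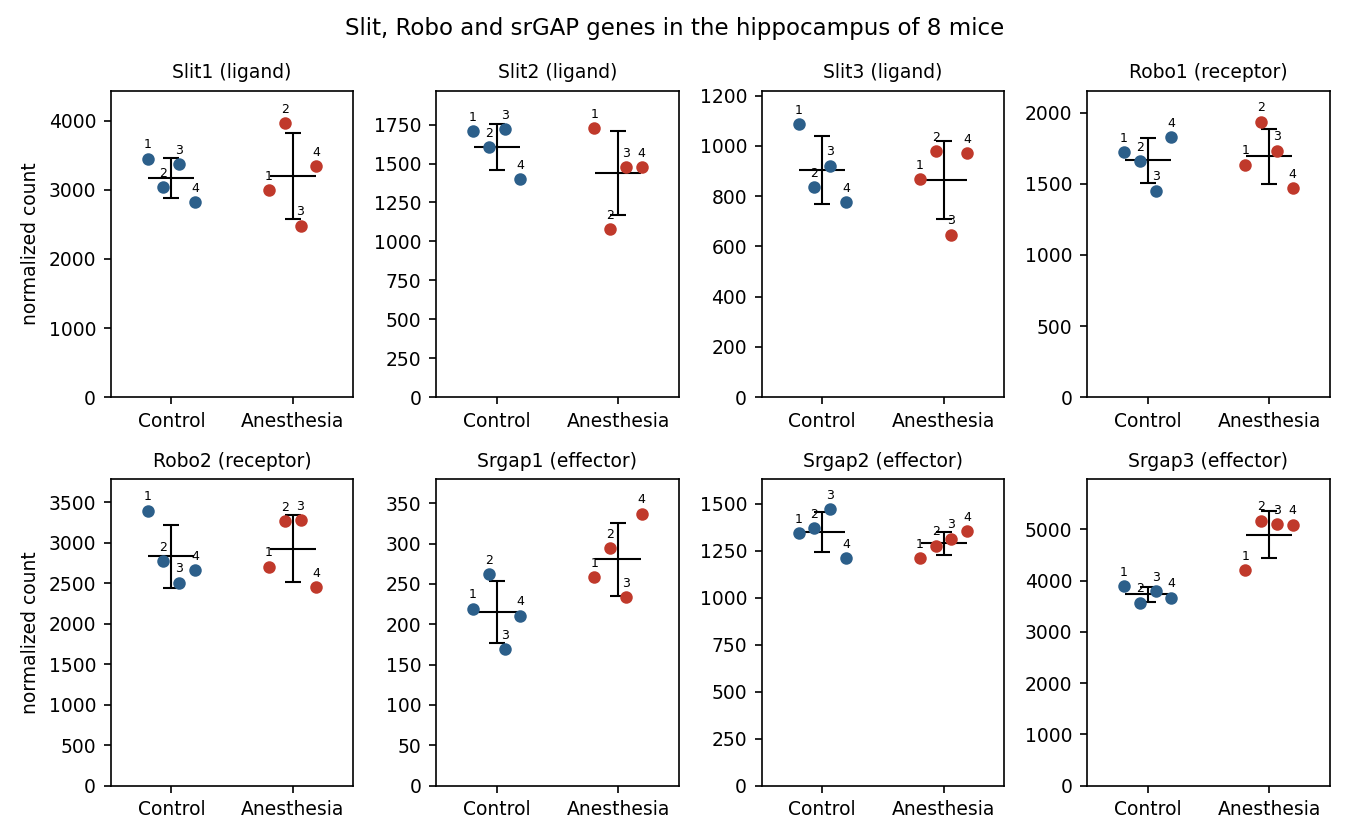
Normalized counts of the 3 ligands, 2 receptors and 3 effectors in each mouse, on linear axes from 0. Points are single mice with their number, horizontal bars are group means and error bars are SD (n = 4 per group); Srgap3 values are 4207 to 5170.3 in Anesthesia and 3567 to 3897 in Control, and the groups overlap in the other 7 panels.

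Among the ligands, the 3 Slit genes had similar levels in both groups. Slit1 (ENSMUSG00000025020, GRCm38 chr19:41600257-41743665, minus strand), the Slit gene most restricted to the nervous system, was at 2995, 3957, 2481 and 3341 normalized counts in Anesthesia mice 1 to 4. In Control mice 1 to 4 it was at 3448, 3033, 3372 and 2818. The highest and the lowest Slit1 values were both in the Anesthesia group, in mice 2 and 3, with the Control values between them. The means were 3193 ± 619.7 and 3168 ± 295 (SD, n = 4 each), and the log2 fold change was −0.004 ± 0.127 (SE).

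Slit2 (ENSMUSG00000031558, chr5:47983138-48307733, plus strand), a ligand for commissural and thalamocortical axons, was at 1727, 1078, 1477 and 1478 normalized counts in Anesthesia mice 1 to 4. In Control mice 1 to 4 it was at 1709, 1603, 1719 and 1399.8. Anesthesia mouse 2 had the lowest Slit2 value of all 8 mice and Anesthesia mouse 1 the highest, so the Control values lay between them. The means were 1440.0 ± 268 and 1608 ± 148, with a log2 fold change of −0.17 ± 0.13 (SE) that lay between −0.27 and −0.04 when single mice were left out, and was −0.04 without Anesthesia mouse 2. Slit3 (ENSMUSG00000056427, chr11:35121224-35708507, plus strand), the Slit gene best known outside the brain, for example in the diaphragm and vasculature, was at 867.5, 979, 646 and 970.3 normalized counts in Anesthesia mice 1 to 4. In Control mice 1 to 4 it was at 1087, 835, 922 and 776. The lowest Slit3 value was in Anesthesia mouse 3, which also had the lowest Slit1 value. The Slit3 means were 866 ± 155 and 905 ± 136, with a log2 fold change of −0.07 ± 0.14 (SE).

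Slit2 and Slit3 each carry a copy of the microRNA gene Mir218 within an intron, a host relation that links the ligand loci to the receptors, since Robo1 and Robo2 are known targets of miR-218. In the longest coding transcripts, Mir218-1 lay in intron 16 of Slit2 (chr5:48223942-48224051, plus strand) and Mir218-2 in intron 14 of Slit3 (chr11:35616816-35616925, plus strand), each on its host's strand. Both hairpins give the same 5p mature sequence (RefSeq, GRCm38.p6), shown because its seed, bases 2 to 8 in capitals, is the part that pairs with targets.
mmu-miR-218-5p: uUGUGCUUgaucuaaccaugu
The level of the mature microRNA was not analysed here. The match to the seed, AAGCACA, was looked for on the sense strand of the longest annotated 3′ UTR of each gene (GENCODE M21, GRCm38), with no other motif searched. There was 1 match in Robo1 and there were 2 in Robo2, 2 in Slit2 itself, 1 in Srgap2 and 1 in Srgap3, and there was none in Slit1, Slit3 or Srgap1. The sites in the receptors and in the srGAP genes are shown with the match in capitals.
Robo1 site: ttttttggttttaaAAGCACAa
Robo2 first site: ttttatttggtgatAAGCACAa
Robo2 second site: gtcacggcagacccAAGCACAg
Srgap2 site: ttgggaaaaatccaAAGCACAa
Srgap3 site: attcacatttagggAAGCACAc
Among 14483 tested genes with an annotated 3′ UTR, 16.1% held at least 1 match, and the share grew with length. It was 18.6% for 3′ UTRs within 20% of the length of that of Robo1, 37.6% for Robo2, 33.5% for Slit2, 38.8% for Srgap2 and 43.5% for Srgap3. A match of these letters is a description of the sequence and not a measured site.

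Both receptors had similar levels in the 2 groups. Robo1 (ENSMUSG00000022883, chr16:72308306-73046095, plus strand), a receptor on commissural axons and migrating interneurons, was at 1636, 1937, 1733 and 1469.6 normalized counts in Anesthesia mice 1 to 4. In Control mice 1 to 4 it was at 1721, 1659, 1454 and 1830.3. The Robo1 values of the groups were interleaved, with means of 1694 ± 195 and 1666 ± 158 and a log2 fold change of 0.02 ± 0.10 (SE). Robo2 (ENSMUSG00000052516, chr16:73891839-74411825, minus strand), its neighbour on the same chromosome and a receptor that also organises synapses in hippocampal area CA1, was at 2706, 3264, 3282 and 2449 normalized counts in Anesthesia mice 1 to 4. In Control mice 1 to 4 it was at 3397, 2772, 2507 and 2661. The highest Robo2 value was in Control mouse 1 and the lowest in Anesthesia mouse 4. The Robo2 means were 2926 ± 415 and 2834 ± 390.3, with a log2 fold change of 0.04 ± 0.12 (SE).

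The effectors differed among themselves. Srgap3 (ENSMUSG00000030257, chr6:112717971-112947266, minus strand), also known as WRP or MEGAP, inactivates Rac and binds the actin regulator WAVE1. It was at 4207, 5170.3, 5106 and 5089 normalized counts in Anesthesia mice 1 to 4 and at 3897, 3567, 3794 and 3669 in Control mice 1 to 4. Every Anesthesia mouse was above every Control mouse, and Anesthesia mouse 1 was the one close to the Control range. The Srgap3 means were 4893 ± 459 and 3732 ± 144, a ratio of 1.31 and a log2 fold change of 0.39 ± 0.07 (SE). Leaving out single mice moved it between 0.36 and 0.46, and other settings of the processing between 0.29 and 0.40. Differences of at least this size upwards were common, in 1090 genes or 5.78% of those tested. That count is by fold change alone, over genes of every level and spread. Srgap3 stood at place 6 of the 18865 genes when they were ordered by unadjusted p in limma, but did not pass the adjusted threshold. Its place describes a gene chosen with the contrast known and is not a test.

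Srgap1 (ENSMUSG00000020121, chr10:121780991-122047315, minus strand), which acts mainly on Cdc42 downstream of Robo1, was at 258, 294, 233 and 337 normalized counts in Anesthesia mice 1 to 4. In Control mice 1 to 4 it was at 219, 262, 169 and 211. The mean of Srgap1 differed by nearly the same ratio as that of Srgap3, but the groups overlapped: Anesthesia mice 1 and 3 were below Control mouse 2. The means were 281 ± 45.2 and 215 ± 38.1, and the log2 fold change of 0.38 ± 0.15 (SE) had a larger SE than that of Srgap3. Srgap2 (ENSMUSG00000026425, chr1:131285251-131527352, minus strand), which promotes filopodia and the maturation of spines, did not share this pattern. It was at 1210.1, 1277, 1313 and 1355 normalized counts in Anesthesia mice 1 to 4 and at 1343, 1371, 1470.3 and 1209 in Control mice 1 to 4. The Srgap2 values of Anesthesia lay wholly within the Control range, with means of 1289 ± 61.4 and 1348 ± 108 and a log2 fold change of −0.06 ± 0.07 (SE).

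**Figure D2:**
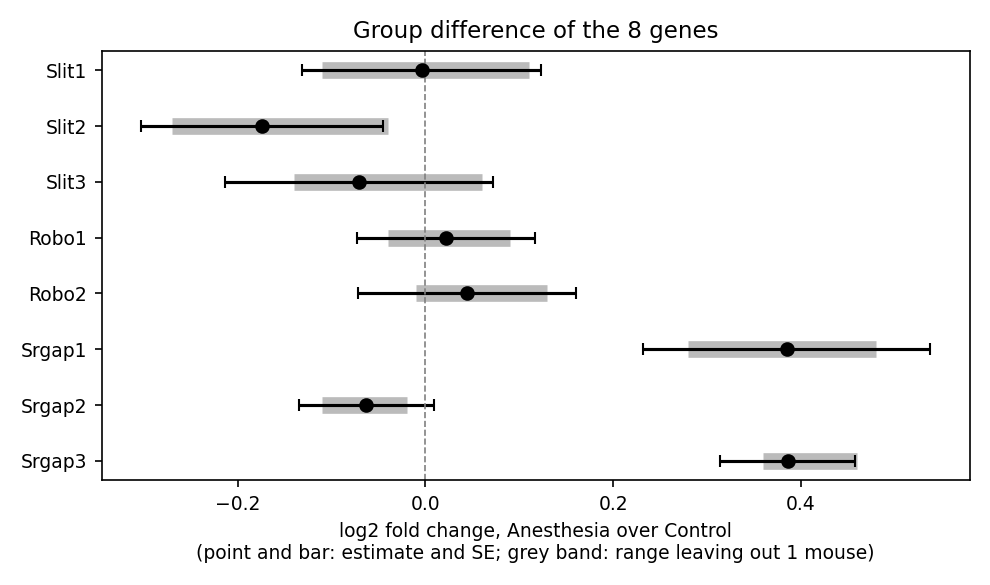
Log2 fold change of each gene, Anesthesia over Control, from limma on log2(value + 1), with bars for the SE and grey bands for the range of estimates when 1 of the 8 mice is left out. Srgap1 (0.38) and Srgap3 (0.39) lie to the right of 0 under every omission, Slit2 (−0.17) and Srgap2 (−0.06) lie to the left, and the bands of Slit1, Slit3, Robo1 and Robo2 cross 0.

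The levels per kilobase of merged exons were also expressed as shares of the srGAP family, which sum to 100% and so restate the counts above. Srgap3 gave 77.4, 79.7, 79.9 and 78.1% of the summed srGAP level in Anesthesia mice 1 to 4, and 75.1, 72.4, 74.0 and 75.7% in Control mice 1 to 4. Srgap2 gave 17.5, 15.4, 16.1 and 16.3% in Anesthesia and 20.3, 21.8, 22.5 and 19.6% in Control. The Srgap2 shares were lower in Anesthesia while the Srgap2 counts of Anesthesia lay within the Control range, since the summed level that divides them includes the larger Srgap3 count. The mean shares were 78.8 ± 1.22% and 74.3 ± 1.46% for Srgap3, and 16.3 ± 0.844% and 21.1 ± 1.34% for Srgap2. Srgap1 gave 3.55 to 5.74% over the 8 mice, with both extremes in Control and means of 4.88% in Anesthesia and 4.64% in Control. These shares come from the contrast that was known when the genes were chosen, and were not tested. The shares within the other families were close to each other in the groups, with means of 72.8 and 71.6% for Slit1 among the Slit genes and of 62.6 and 62.2% for Robo2 of both Robo genes. Slit2 was at 4.86% of the Slit level in Anesthesia mouse 2 and at 7.43 to 9.95% in the other 7 mice.

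**Figure D3:**
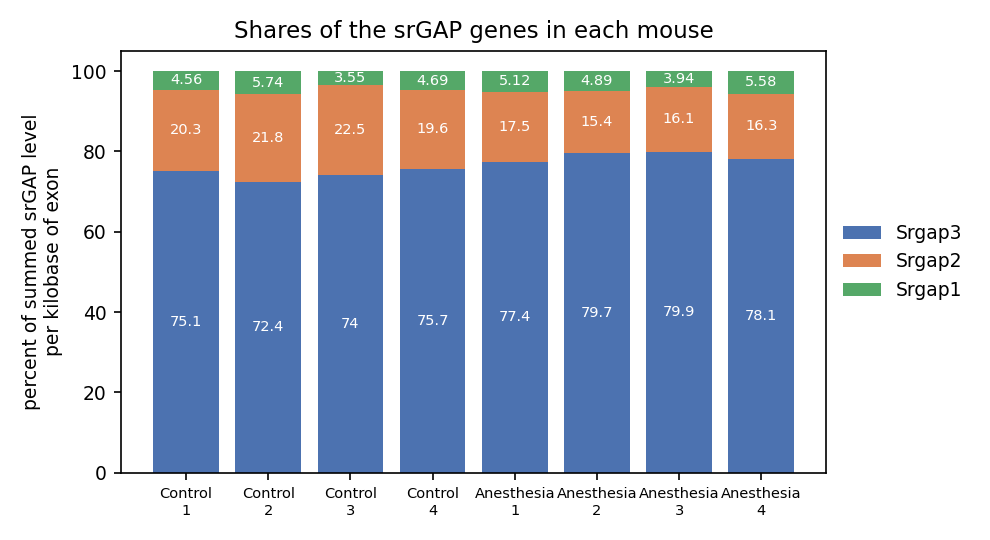
Share of Srgap3, Srgap2 and Srgap1 in the summed level of the 3 genes per kilobase of merged exons, in percent, as 1 stacked bar per mouse. Srgap3 takes 72.4 to 75.7% in the Control mice on the left and 77.4 to 79.9% in the Anesthesia mice on the right, with Srgap2 smaller in Anesthesia.

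The promoters of the 3 srGAP genes (RefSeq, GRCm38.p6, 250 bases before to 50 after the annotated start, on the gene's strand) are shown because Srgap1 and Srgap3 were both higher in Anesthesia while Srgap2 was not. Capitals mark CG, the pair of letters searched, which reads the same on both strands.
Srgap1, chr10:122047266-122047565, minus strand: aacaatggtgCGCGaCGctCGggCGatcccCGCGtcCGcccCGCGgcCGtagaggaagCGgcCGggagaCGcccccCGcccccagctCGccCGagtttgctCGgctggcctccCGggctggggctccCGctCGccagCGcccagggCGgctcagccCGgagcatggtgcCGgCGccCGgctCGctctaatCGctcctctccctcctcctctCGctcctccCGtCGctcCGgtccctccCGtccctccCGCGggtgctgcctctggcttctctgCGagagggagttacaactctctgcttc
Srgap2, chr1:131527312-131527611, minus strand: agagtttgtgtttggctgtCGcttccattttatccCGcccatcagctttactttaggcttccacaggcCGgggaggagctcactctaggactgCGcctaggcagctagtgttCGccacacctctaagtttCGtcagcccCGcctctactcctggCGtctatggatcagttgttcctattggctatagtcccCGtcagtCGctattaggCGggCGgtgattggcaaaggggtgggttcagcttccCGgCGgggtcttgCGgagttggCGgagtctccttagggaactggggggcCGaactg
Srgap3, chr6:112947217-112947516, minus strand: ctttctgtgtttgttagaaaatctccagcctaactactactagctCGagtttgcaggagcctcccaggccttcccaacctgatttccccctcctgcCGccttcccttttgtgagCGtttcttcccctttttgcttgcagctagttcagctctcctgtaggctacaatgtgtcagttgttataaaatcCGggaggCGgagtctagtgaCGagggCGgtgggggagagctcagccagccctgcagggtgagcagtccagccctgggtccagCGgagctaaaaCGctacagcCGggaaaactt
These windows held 37 CG pairs for Srgap1, 17 for Srgap2 and 10 for Srgap3. The median over 32851 promoters of the same length was 7, and 94.6% held at least 1. Fewer CG pairs than Srgap1 were found in 94.4% of all promoters, and fewer than Srgap3 in 56.5%. Of the 3 srGAP genes, Srgap1 had the most CG pairs and Srgap3 the fewest. Among the other members, the window of Slit3 held 41, that of Slit2 30, that of Robo1 15, and those of Robo2 9, 5 and 17. The relation of CG pairs to the group differences was not tested. A promoter was matched for 7 of the 8 genes, all but Slit1.

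The level of choroid plexus RNA is set beside Srgap3 here because the libraries fell apart in it. None of its 10 markers had an unadjusted p under 0.05 between the groups in limma, and each group held rich and poor libraries. Among mice of the same group, the choroid plexus list correlated with Srgap3 at r = −0.77 (exact permutation p = 0.059; Spearman rho = −0.81, exact permutation p = 0.0365; n = 8 group-centred values; adjusted p = 0.409 over 40 pairs). Without the 2 mice farthest from the median of the list, r was −0.57. In Anesthesia, mouse 1 had the most choroid plexus RNA and the least Srgap3. The libraries were divided at the widest gap in the mean log2 value of the list, a division made after seeing the data. Among the 4 mice rich in choroid plexus RNA, Srgap3 was at 4207 in the Anesthesia mouse and at a mean of 3677 in the 3 Control mice, a ratio of 1.14. Among the 4 poor in it, the mean of the 3 Anesthesia mice was 5122 and the Control mouse was at 3897, a ratio of 1.31. Srgap3 was higher in Anesthesia within both sets, by a smaller ratio among the rich libraries. Any division of the mice would give this direction, since every Anesthesia value of Srgap3 lay above every Control value. For Srgap1 the ratios were 1.21 and 1.32. When limma was given the choroid plexus level as a further term, the log2 fold change was 0.32 for Srgap3 and 0.35 for Srgap1 (adjusted p = 0.979 each). The ratio of Slit2 turned from 1.1 among the rich libraries to 0.787 among the poor ones and that of Slit3 from 1.03 to 0.796. Each set holds 1 mouse of one group, so these values have no spread of their own, and the part of choroid plexus RNA in the differences was not tested.

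**Figure D4:**
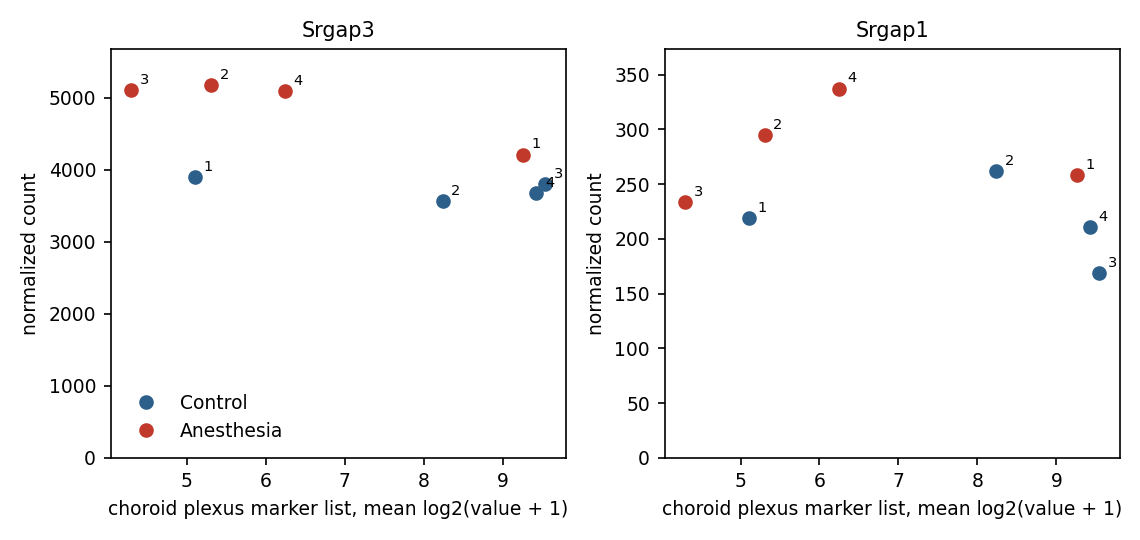
Normalized count of Srgap3 (left) and Srgap1 (right) against the mean log2(value + 1) of the 10 choroid plexus markers, with each mouse as a numbered point colored by group. Anesthesia mice 2, 3 and 4 are at low choroid plexus values with Srgap3 between 5089 and 5170.3, Anesthesia mouse 1 is among the choroid-rich Control mice at 4207, and Control mouse 1 is among the choroid-poor mice at 3897.

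The levels of the 8 genes were then compared with each other per kilobase of merged exons, over all 8 mice. Slit1 was highest with a mean of 537 normalized counts per kilobase, followed by Srgap3 at 438, Robo2 at 170.0, Slit3 at 146, Srgap2 at 105, Robo1 at 102, Slit2 at 59.9 and Srgap1 at 27.2. The range over the mice was 419 to 668 for Slit1, 362 to 525 for Srgap3 and 18.5 to 36.9 for Srgap1. Neighbours in this order were compared within mice by a two-sided exact sign-flip permutation test, adjusted over 7 pairs. Srgap3 was above Robo2 by 2.57-fold, Slit3 above Srgap2 by 1.38-fold, Robo1 above Slit2 by 1.71-fold and Slit2 above Srgap1 by 2.23-fold, each in 8 of 8 mice (adjusted exact p = 0.0137, from the smallest p of 0.00781 that 8 mice allow). Slit1 was above Srgap3 by 1.23-fold in 7 of 8 mice (adjusted exact p = 0.0437), a call that, with 1 mouse left out at a time, was kept only without Anesthesia mouse 3. This fold pools groups that differ in Srgap3. In Control mice 1 to 4, Slit1 was at 582, 512, 570 and 476 and Srgap3 at 396, 362, 385 and 372. In Anesthesia mice 1 to 4 they lay closer, with Slit1 at 506, 668, 419 and 564 and Srgap3 at 427, 525, 518 and 517. The pairs Robo2 and Slit3 (1.17-fold, 6 of 8 mice, adjusted exact p = 0.0547) and Srgap2 and Robo1 (1.03-fold, 4 of 8 mice, adjusted exact p = 0.57) did not pass the adjusted threshold on this scale. Robo2 and Slit3 were close to it, with an exact sign-flip p of 0.0469 before adjustment.

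The order depended on which length was used, since the genes differ in how much alternative exon and UTR sequence is annotated. Slit2 has 25433 bases of merged exons over 23 transcripts, while its longest transcript has 9960 and its coding sequence 4626. Per kilobase of coding sequence Srgap3 was highest at 1310.0, above Slit1 at 692, Robo2 at 635, Srgap2 at 410.0, Robo1 at 345, Slit2 at 329, Slit3 at 194 and Srgap1 at 76.2. Per kilobase of the longest transcript, Slit1 at 561 stayed above Srgap3 at 485 and Robo1 at 222 moved above Slit3 at 169. The calls moved with it. Slit1 above Srgap3 was lost per longest transcript (adjusted exact p = 0.082), and per coding length Srgap3 was above Slit1 (adjusted exact p = 0.0109). Robo2 was above Slit3 on both other scales (adjusted exact p = 0.0109 each). Srgap2 was below Robo1 per longest transcript (adjusted exact p = 0.0109) and above it per coding length (adjusted exact p = 0.0273). The call of Robo1 above Slit2 was lost per coding length (adjusted exact p = 0.633). Slit3 and Srgap2 did not pass the adjusted threshold per longest transcript (adjusted exact p = 0.727), and per coding length Srgap2 was above Slit3 (adjusted exact p = 0.0109). On each of the 3 scales Slit1 and Srgap3 were the 2 highest, Robo2 came next and Srgap1 was lowest.

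Among mice of the same group, Slit1 and Slit3 varied together. After subtraction of each group's mean, Slit1 was at −0.07, 0.33, −0.34 and 0.09 on the log2 scale in Anesthesia mice 1 to 4 and at 0.13, −0.06, 0.09 and −0.16 in Control mice 1 to 4. Slit3 was at 0.02, 0.20, −0.40 and 0.18 in Anesthesia and at 0.28, −0.10, 0.04 and −0.21 in Control. Both ligands were lowest in Anesthesia mouse 3 and low in Control mouse 4, and both were above their group mean in Anesthesia mice 2 and 4 and Control mice 1 and 3. Pearson's r was 0.90 (exact permutation p = 0.00174, the smallest the 576 permutations within groups can give; adjusted p = 0.0486 over the 28 pairs of genes). Spearman's rho was 0.93 (exact permutation p = 0.00694), with an adjusted p of 0.194 by permutation, which did not pass 0.05. Without Anesthesia mice 2 and 3, r was 0.89. Correlations of this size were not rare: of 12245 other genes with a mean of at least 100, 1.89% correlated with Slit1 at least as highly as Slit3 did, and 1.04% with Slit3 at least as highly as Slit1 did.

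Slit2 did not move with either of them, with r = −0.38 to Slit1 and −0.04 to Slit3 (exact permutation p = 0.533 and 0.939). Of the other 27 pairs none passed the adjusted threshold by Pearson. The receptors Robo1 and Robo2 had r = 0.70 (exact permutation p = 0.102, rho = 0.74 with exact permutation p = 0.0712; adjusted p = 0.717), which fell to 0.30 without Anesthesia mouse 4 and Control mouse 3. Slit2 and Robo1 had r = −0.69 (exact permutation p = 0.092), which rested on Anesthesia mouse 2 and Control mouse 4, since r was −0.04 without them. Srgap1 and Srgap3, the 2 effectors with the larger group differences, did not follow each other within groups (r = 0.04, exact permutation p = 0.929; rho = 0.00, exact permutation p = 1).

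The shared variation of Slit1 and Slit3 ran along with markers of dentate granule neurons, the principal cells of the dentate gyrus. The mean of the 9 dentate markers, relative to the group mean, was −0.09, 0.60, −0.50 and −0.01 in Anesthesia mice 1 to 4 and 0.46, −0.13, 0.06 and −0.39 in Control mice 1 to 4. Its highest mouse, Anesthesia 2, was the highest for Slit1, and its lowest, Anesthesia 3, was the lowest for Slit1 and for Slit3. The correlation was r = 0.94 for Slit1 (exact permutation p = 0.00347; rho = 0.98, exact permutation p = 0.00347) and r = 0.89 for Slit3 (exact permutation p = 0.0122; rho = 0.95, exact permutation p = 0.00347). Without Anesthesia mouse 2 and Control mouse 1, r was 0.96 and 0.92. This list was one of 8 added after the data had been seen, and over their 64 pairs the adjusted p by permutation was 0.111 and 0.156, so neither passed. Of 12246 genes, 0.751% correlated with the dentate list at least as highly as Slit1 and 2.64% at least as highly as Slit3. The CA3 list correlated with Slit3 at r = 0.89 and with Slit1 at r = 0.78 (exact permutation p = 0.033 and 0.0451; adjusted p = 0.302 and 0.361). The interneuron list ran the other way, at r = −0.88 with Slit1 (exact permutation p = 0.0278; adjusted p = 0.296). So did the list of cortex and subiculum markers, at r = −0.87 with Slit1 and −0.70 with Slit3 (exact permutation p = 0.0608 and 0.116; adjusted p = 0.432 and 0.573). Without Anesthesia mice 2 and 3, r with Slit1 was −0.60 for the interneuron list and −0.26 for the cortex and subiculum list. The part of the dentate, CA3, interneuron, cortex and subiculum markers in the Slit1 and Slit3 values was not tested.

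**Figure D5:**
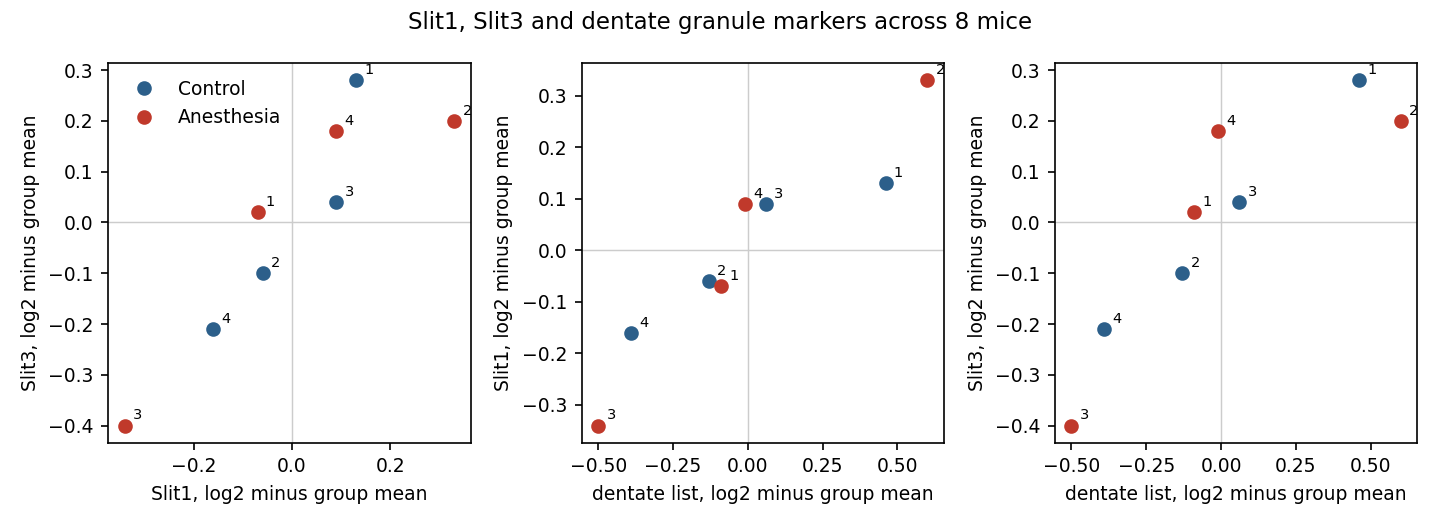
Log2 values minus the group mean in each mouse, for Slit3 against Slit1 (left), and for Slit1 (middle) and Slit3 (right) against the mean of 9 dentate granule markers, with points numbered by mouse and colored by group. In all 3 panels the points rise from Anesthesia mouse 3 at the lower left to Anesthesia mouse 2 or Control mouse 1 at the upper right, with r = 0.90, 0.94 and 0.89.

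Robo2 ran against myelin markers. Its correlation with the 9 oligodendrocyte markers was r = −0.90 (exact permutation p = 0.00174; rho = −0.95, exact permutation p = 0.00174), with an adjusted p of 0.0694 over the 40 pairs of the first 5 lists by permutation. The list was highest in Anesthesia mouse 4 and Control mouse 3, at 0.48 and 0.37 above the group mean, where Robo2 was at −0.24 and −0.17. It was lowest in Control mouse 1 at −0.47, where Robo2 was at 0.27. Without Anesthesia mouse 4 and Control mouse 3, r was −0.79. Of 12246 genes, 0.335% correlated with the list at least as far in this direction. Robo2 also had r = −0.86 with oligodendrocyte precursor markers (exact permutation p = 0.00174, adjusted p = 0.111) and r = −0.78 with the choroid plexus list (exact permutation p = 0.0365, adjusted p = 0.409). For Robo1, the largest was r = −0.79 with the thalamus list (exact permutation p = 0.0417, adjusted p = 0.409), which dropped to −0.23 without the same 2 mice. Slit2 had r = −0.93 with astrocyte markers (exact permutation p = 0.0122, adjusted p = 0.156), and −0.62 without Anesthesia mouse 2 and Control mouse 4. The largest for Srgap2 among the first 5 lists were r = −0.75 with the CA1 list and r = −0.71 with fibroblast markers (exact permutation p = 0.0885 and 0.0712, adjusted p = 0.409 each). The first dropped to −0.11 without Control mice 3 and 4, and the second to −0.51 without Anesthesia mouse 4 and Control mouse 4. None of the 40 or of the 64 pairs passed an adjusted threshold of 0.05.

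For each gene, those with the most similar pattern within groups were taken from 12246 with a mean of at least 100, as a description over 8 mice. For Slit1 they were Sowaha (r = 0.991), D5Ertd579e (0.988) and Zbtb20 (0.983). For Slit2 they were BC029722 (r = 0.975), Wdr6 (0.967) and Plagl1 (0.959). For Slit3, Cpd (r = 0.987) and Timm8b (0.987) came first. No gene named here appeared for more than one of the 8. For Robo1 they were Mical2 (r = 0.979), Mdc1 (0.969) and Sema6b (0.961). For Robo2 they were Fnbp4 (r = 0.971), AC164106.1 (0.967) and 2210016L21Rik (0.962). Sema6b, named for Robo1, is a transmembrane semaphorin and so itself a guidance gene. For Srgap1 they were Keap1 (r = 0.986), Emc4 (0.955) and Mynn (0.947). For Srgap2 they were Fndc3a (r = 0.954), Nup107 (0.942) and Pnrc1 (0.932). For Srgap3 they were Entr1 (r = 0.988), Gm45477 (0.973) and Simc1 (0.972).

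The other genes of the pathway were read from 2 lists. These lists, like the F-BAR list, were chosen with earlier results of these data known. Their counts and shares in the Anesthesia against Control contrast are therefore a description and no test. Of 18 genes that act with Slit and Robo at the cell surface, such as further receptors, heparan sulfate proteoglycans and the enzymes that make their chains, none passed the adjusted threshold in limma or in limma voom, and 2 were higher and 2 lower in Anesthesia at an unadjusted p under 0.05, which is 22.2% of the list beside 8.02% of all genes. Groups did not overlap for 2 of the 18, Sdc2 and Hs6st1, beside 5.04% of all genes. Their median log2 fold change was 0.113 and fell to 0.012 with a correction for GC content and length. Sdc2, a syndecan core protein, was at 504, 423, 536 and 461 in Anesthesia mice 1 to 4 and at 544, 596, 637 and 638 in Control mice 1 to 4, a log2 fold change of −0.33 ± 0.09 (SE). Every Anesthesia mouse was below every Control mouse in Sdc2. Hs6st1, a heparan sulfate sulfotransferase, was at 644, 706, 735 and 671 in Anesthesia and at 578, 623, 539.6 and 619 in Control, a log2 fold change of 0.22 ± 0.08 (SE). Here the Anesthesia mice were above all Control mice. Dag1, the dystroglycan that binds Slit, had a log2 fold change of 0.22 ± 0.09, and Sdc4, another syndecan, one of −0.17 ± 0.07, both with overlapping groups.

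Of 26 genes that act with Robo and srGAPs in the cytoplasm, none passed the adjusted threshold in either tool, and 3 were lower and none higher at an unadjusted p under 0.05, which is 11.5% of the list beside 8.02% of all genes. Their median log2 fold change was 0.007. Wasf1, which encodes WAVE1, the actin regulator bound by the Srgap3 protein, was at 1212, 1303, 1392 and 1145 in Anesthesia mice 1 to 4 and at 1437, 1456, 1377 and 1534 in Control mice 1 to 4. Its log2 fold change was −0.20 ± 0.07 (SE), and Anesthesia mouse 3 alone lay above the lowest Control mouse. Nck1, an adaptor between Robo and actin, was at 291, 409.9, 326 and 419.9 in Anesthesia and at 499.9, 401, 445 and 443 in Control, a log2 fold change of −0.32 ± 0.13. The other gene of the 3 was Gphn, the gephyrin of inhibitory synapses, at −0.21 ± 0.09. Groups did not overlap for 1 gene of the list, beside 5.04% of all genes. It was Cdc42, the GTPase on which Srgap1 acts, at 4969, 4777, 4332 and 4723 in Anesthesia and at 5058, 5093, 5029 and 4986 in Control. Its log2 fold change was −0.10 ± 0.05 (unadjusted p = 0.0812, adjusted p = 0.652 in limma). Gphn and Cdc42 were named after their values were seen. Evl, an Ena/VASP protein, had a log2 fold change of 0.23 ± 0.11, and Cdh2, the N-cadherin that Robo signaling uncouples from the cytoskeleton, one of 0.08 ± 0.07. Among 20 other F-BAR genes none passed the adjusted threshold in either tool and 1 (5.0% of the list) had an unadjusted p under 0.05, Gas7, a neuronal F-BAR protein at 0.16 ± 0.07. The log2 fold changes of the F-BAR list lay between −0.17 and 0.36, the highest being that of Arhgap4 (0.36 ± 0.19), with a median of 0.058, beside 0.39 for Srgap3, 0.38 for Srgap1 and −0.06 for Srgap2.

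In the other guidance families no gene passed the adjusted threshold in limma or in limma voom. The lists of these families were also chosen with earlier results known, so their shares are a description and no test. At an unadjusted p under 0.05, 2 of 15 netrin pathway genes were higher and none lower, which is 13.3% of the list beside 8.02% of all genes, with a median log2 fold change of 0.108. They were Dscam, a netrin receptor, at 0.20 ± 0.06, and Ntng2, the netrin-G2 of glutamatergic axons, at 0.39 ± 0.12, both with groups that did not overlap, as in 2.81% of all genes with Anesthesia higher. Of 31 semaphorin and plexin genes, 2 were higher and 1 lower, or 9.68%, with a median of 0.101. They were the plexins Plxna3 at 0.34 ± 0.12 and Plxna2 at 0.19 ± 0.09, and Sema3b at −1.67 ± 0.54. Sema3b was at 162 in Anesthesia mouse 1 and at 24.3 to 30.5 in the other 3 Anesthesia mice, against 102 to 251 in Control. Groups did not overlap for 1 of the 31, beside 5.04% of all genes, or 2.81% with Anesthesia higher. It was Sema4c (0.29 ± 0.13), named for this after its values were seen. Of 22 ephrin and Eph genes, 2 were higher and 1 lower, or 13.6%, with a median of 0.006: Epha10 at 0.46 ± 0.17, Ephb3 at 0.29 ± 0.13 and Epha1, at a mean of only 7.19 and 13.2 normalized counts, at −0.84 ± 0.35.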

How the data were processed

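Hippocampal RNA of 4 Anesthesia and 4 Control mice was sequenced, and each column was assigned to a mouse by its group letter and number. The authors quantified reads against GRCm38 by Salmon 1.1.0 (quasi-mapping, corrected for GC bias), collapsed transcripts to genes with tximport (R 3.5.3) and applied DESeq2 1.30.1 normalization. The deposited table is thus a signal, in normalized counts, not raw reads. The annotation release is not given in the sources used here. Whole reads could not be recovered, since 45.9 to 68.3% of low values were within 0.1 of a whole multiple. The spacing of low values was 0.849 to 1.214 between libraries, and depth limits the precision of low genes. The labels name an unstranded kit and the study's methods a stranded one, so reads of genes overlapping Slit2, Robo2, Srgap1 and Srgap2 may not be separable.

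The 18865 genes averaging 10 or more entered limma 3.58.1 (R 4.3.3) as log2(value + 1), with the variance trended on the mean, without covariates, with Benjamini-Hochberg adjustment and a threshold of 0.05, and tested on simulated data. A fold change is on the log2(value + 1) scale and understates changes of low genes. Gene positions and lengths came from GENCODE M21, which held 20784 of the 20802 identifiers. Correlations used log2 values minus the group mean, and permuted mice within groups. The genes named are the 8 members, for each the 3 genes of the most similar pattern (1 is not reported here), in each pathway list the 2 with the smallest unadjusted p per direction, and marker genes with their list. The members and all lists were chosen with earlier results of these data known. Mice with the same number did not deviate together (r between −0.242 and 0.019), so the numbers name mice and do not pair them. Alternatives covered the scaling, pseudocount, filter, tool, replicate block, GC content and length, single mice left out, and, chosen after seeing the data, choroid plexus RNA as a covariate and 8 further marker lists.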

Additional observations from a re-analysis of the deposited data

Results flagged for a closer look

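Srgap3 in Anesthesia mouse 1 was at 4207.1 normalized counts, while the other 3 Anesthesia mice were between 5088.9 and 5170.3, and this gap was 0.916 of the group's range and so beyond Dixon's critical value for 4 samples at the 95% level. It was 1 of 16 groups examined (8 genes in 2 groups), of which 0.8 would be expected by chance at 1 in 20. The same mouse was the one Anesthesia library rich in choroid plexus RNA, with Ttr, the transthyretin made by choroid plexus epithelium, at 53003 against 182 to 2679 in the other 3. Without this mouse the log2 fold change of Srgap3 was 0.46. The part of choroid plexus RNA in this value was not tested.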

How the results depend on the processing

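Under 11 alternatives in scale, filter and model, no gene of the 8 passed the adjusted threshold, and the log2 fold change stayed within 0.29 to 0.40 for Srgap3, 0.30 to 0.40 for Srgap1, −0.24 to −0.13 for Slit2, −0.15 to −0.06 for Slit3 and −0.14 to −0.05 for Srgap2, while those of Slit1, Robo1 and Robo2 changed sign within −0.11 to 0.05. With single mice left out, the ranges were −0.11 to 0.11 for Slit1, −0.14 to 0.06 for Slit3, −0.04 to 0.09 for Robo1, −0.01 to 0.13 for Robo2, 0.28 to 0.48 for Srgap1 and −0.11 to −0.02 for Srgap2, and 0 to 2 genes of all passed (2 without Control mouse 1). In the fit with a replicate block, 0 genes passed the adjusted and 1084 an unadjusted threshold against 1513 without it, the log2 fold change of Srgap3 was 0.39, and no call changed. The same mouse numbers do not pair the samples.

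Correction for GC content and length, with or without the block, moved list medians to 0.012 (surface genes), 0.031 (netrin), 0.021 (semaphorin) and −0.046 (ephrin). Leaving out single mice moved them within 0.069 to 0.118, 0.035 to 0.117, 0.074 to 0.147 and −0.039 to 0.049, and within −0.038 to 0.026 for the cytoplasm list, which was at −0.029 with the choroid plexus covariate. At no alternative setting did a gene of these lists pass.

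The order by length changed most. Per kilobase of the longest transcript the log2 ratio was 0.21 for Slit1 to Srgap3, 0.99 for Robo2 to Slit3, 0.03 for Slit3 to Srgap2 and −0.43 for Srgap2 to Robo1. Per kilobase of coding length it was −0.91, 1.72, −1.10 and 0.25, and 0.08 for Robo1 to Slit2. Leaving out single mice gave 0.26 to 0.39 for Slit1 to Srgap3, 0.13 to 0.27 for Robo2 to Slit3 (past the threshold without Anesthesia mouse 4 or Control mouse 3) and −0.0031 (without Control mouse 3) to 0.09 for Srgap2 to Robo1. By Spearman, 0 pairs of genes passed, and Slit1 with Slit3 had rho 0.93. Beyond the construction of each length, the causes were not tested.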
